A study of Arabidopsis thaliana with 22 samples.

Results

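Leaves of an Arabidopsis thaliana line that overexpresses AITF1 (OXAITF1) were compared with wild-type (WT) leaves across all genes. The members are the 2 OXAITF1 and 2 WT libraries of the deposited leaf count table, 4 of the 22 RNA-seq libraries of the series, and all 23318 genes that the table lists. Both genotypes were represented by leaves of 3-week-old plants grown in soil at equal hours of light and dark, and no treatment is named for either. The sources used here do not give the WT accession, the promoter that drives AITF1, the number of independent lines, the plants in a library or the hour of collection. Nor do they say that libraries of a genotype came from separate plants, so the p-values describe spread between libraries that may be technical.

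Trihelix factors are plant DNA-binding proteins, first described through GT elements in promoters of light-responsive genes. ASR3, the other factor of the pair that the study is about, is known as a repressor of genes induced by microbial patterns. A mature leaf spends most of its transcript pool on photosynthesis, and salicylic acid signalling, sulfur-rich glucosinolates and cell wall receptors are among its main defences.

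The libraries held 17342180 and 19395413 counts in OXAITF1 leaves and 15292308 and 16641940 counts in WT leaves. Values are given as CPM (counts per 1000000 counts of the library, scaled with TMM factors) and in the order replicate 1, replicate 2. The libraries carried the transcripts of leaves. The 6 markers of mesophyll, the photosynthetic leaf tissue, summed to 16290.5 and 17349 CPM in OXAITF1 and 54633 and 58843 CPM in WT leaves. Markers of flowers summed to 0.972 and 0.874 CPM in OXAITF1 and 0.672 and 0.773 CPM in WT leaves, and those of seeds to no more than 0.149 CPM in any library.

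The 2 OXAITF1 libraries stood further apart than the 2 WT libraries. Of 12663 genes that reached 10 CPM in some library, 706 were over 2-fold higher in OXAITF1 replicate 1 than in replicate 2 and 350 over 2-fold lower, against 92 and 85 between the WT replicates. At 8-fold the numbers were 99 and 3 in OXAITF1, against 1 and 3 in WT leaves. The correlation of log2 CPM across these genes was 0.890 between the OXAITF1 libraries and 0.981 between the WT libraries, and genes are not independent replicates. Of these 706 and 350 genes over 2-fold apart between the OXAITF1 libraries, 122 were called different between the genotypes. Over all genes, 3692 of 18639 tested were called (19.8%), which is not a like comparison. A wide gap between libraries itself makes a call less likely, and some of the genes with wide gaps were not tested. The pigment, clock and stress genes that follow were chosen after their values were seen, for their wide gaps.

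Genes of anthocyanin synthesis made up one such group. DFR, dihydroflavonol reductase, had 303 and 0 CPM in OXAITF1 leaves, against 0 and 0.211 CPM in WT leaves. LDOX, the following enzyme, had 152 and 0 CPM in OXAITF1 leaves, against 0 and 0.281 CPM in WT leaves. TT4, the chalcone synthase at the entry of the pathway, had 729 and 4.37 CPM in OXAITF1 leaves, against 14.9 and 22.6 CPM in WT leaves. The pigment genes were thus high in OXAITF1 replicate 1 alone, and PAP1, their MYB activator, had 68.9 and 0.322 CPM in OXAITF1 leaves, against 3.81 and 3.09 CPM in WT leaves. The glutathione transferase GSTF12, the acyltransferase AT5MAT and the glycosyltransferase UF3GT act late in the same pathway. GSTF12 had 113 and 0 CPM in OXAITF1 leaves, AT5MAT had 50.7 and 0.04598 CPM and UF3GT had 50.4 and 0 CPM, and all 3 had 0 counts in both WT libraries. Of 13 flavonoid and anthocyanin genes listed, 6 passed the filter on low counts. Of these, 0 were called by edgeR or DESeq2, and 1 had an unadjusted p under 0.05.

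Clock genes that peak near dawn made up the second group. LHY had 257 and 1.15 CPM in OXAITF1 leaves, against 1.27 and 2.601 CPM in WT leaves. Its partner CCA1 had 209 and 6.48 CPM in OXAITF1 leaves, against 6.5005 and 8.65 CPM in WT leaves. RVE8, a related MYB activator, had 85.5 and 2.02 CPM in OXAITF1 leaves, against 2.47 and 3.16 CPM in WT leaves. All 3 stood near the WT level in OXAITF1 replicate 2. TOC1, the evening partner of CCA1, ran the other way between the OXAITF1 libraries, with 84.9 and 219 CPM in OXAITF1 leaves, against 72.6 and 65.4 CPM in WT leaves. So did ELF4, of the evening complex, with 23.5 and 63.4 CPM in OXAITF1 leaves, against 20.2 and 18.4 CPM in WT leaves. Of 23 clock genes tested, 14 differed over 2-fold between the OXAITF1 libraries and 0 between the WT libraries. Only RVE4, a morning MYB factor, and BOA, a paralogue of the evening complex factor PCL1, were called, both higher in OXAITF1. The fit without OXAITF1 replicate 1 called 9 higher and 3 lower, and that without replicate 2 called 8 and 7. RVE4 had 141 and 116 CPM in OXAITF1 leaves, against 42.4 and 50.97 CPM in WT leaves, without overlap between the genotypes (log2 fold change 1.46, SE 0.19, adjusted p = 0.0179).

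Other genes high in OXAITF1 replicate 1 have roles in starch, light stress and water deficit. GBSS1, the granule-bound starch synthase, had 417 and 14.9 CPM in OXAITF1 leaves, against 11.1 and 7.94 CPM in WT leaves. ELIP1, a light stress protein of thylakoids, had 175 and 0.184 CPM in OXAITF1 leaves, against 0.523 and 1.62 CPM in WT leaves. P5CS1, the committed enzyme of proline synthesis, had 1838 and 192 CPM in OXAITF1 leaves, against 178 and 183 CPM in WT leaves. SAG29, a sucrose transporter of senescing leaves, had 79.3 and 0.09196 CPM in OXAITF1 leaves, against 0 and 0 CPM in WT leaves. Genes higher in OXAITF1 replicate 2 included TCH4, a touch-induced wall enzyme, with 65.4 and 329 CPM in OXAITF1 leaves, against 83.5 and 37.5 CPM in WT leaves. SAG29 did not pass the filter on low counts and was not tested, and the others of these 5 were not called. What sets the OXAITF1 libraries apart, and its part in the results below, was not tested.

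**Figure D1:**
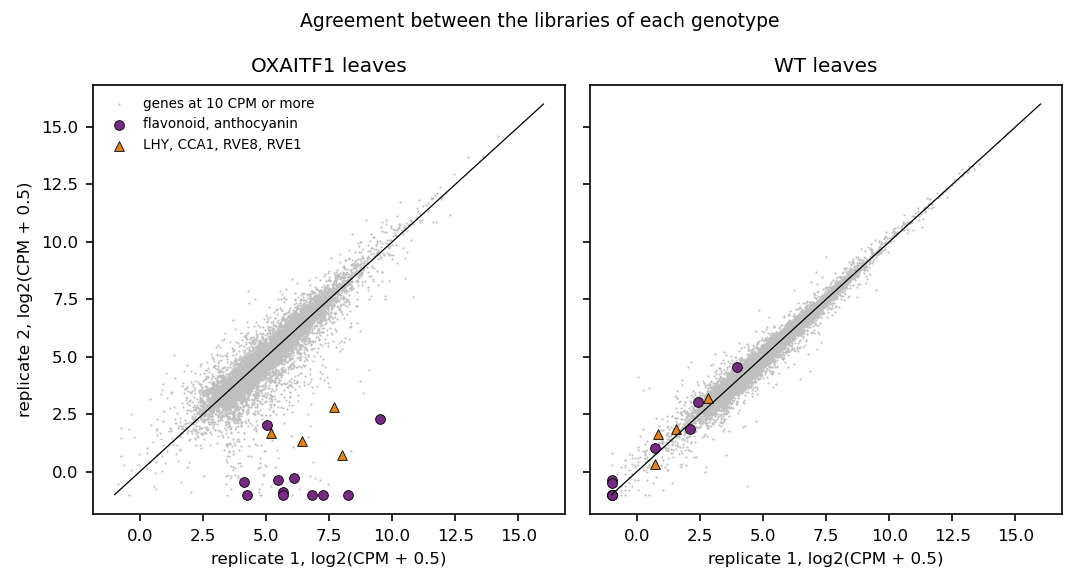
Log2(CPM + 0.5) of each gene in replicate 1 (horizontal) and replicate 2 (vertical), for OXAITF1 on the left and WT on the right, over the 12663 genes that reached 10 CPM in some library. Coloured points are those of them that are flavonoid or anthocyanin genes, and the clock genes LHY, CCA1, RVE8 and RVE1. In OXAITF1 every coloured point lies on the replicate 1 side of the diagonal, and in WT they lie along it.

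The labels give AITF1 no locus, and AITF1 is not a gene name in the reference. The candidate looked at here was AT3G11100, taken up with its rise already known, so its level is a description and no check of the labels. AT3G11100 (chromosome 3, 3476187 to 3477900, TAIR10.1), annotated as a sequence-specific DNA-binding factor, had 2954 and 3839 CPM in OXAITF1 leaves, against 14.4 and 14.4 CPM in WT leaves. It had the largest rise in mean CPM of all 23318 genes listed, with a log2 fold change of 7.88 (SE 0.31, adjusted p = 0.0141), and its high level was shared by both OXAITF1 libraries. The genes on either side were not called. LBD21 had 7.92 and 9.84 CPM in OXAITF1 leaves, against 8.82 and 10.8 CPM in WT leaves. AT3G11110 had 9.18 and 13.9 CPM in OXAITF1 leaves, against 7.696 and 12.2 CPM in WT leaves. ASR3 (AT2G33550) had 7.72 and 7.08 CPM in OXAITF1 leaves, against 7.55 and 13.8 CPM in WT leaves, values that overlapped between the genotypes (log2 fold change -0.53, SE 0.33, adjusted p = 0.303).

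Of 18639 genes tested with edgeR's quasi-likelihood test, 19.8% were called at an adjusted p under 0.05, 9.36% higher and 10.4% lower in OXAITF1. These percentages are the background for the counts of this fit below, and other settings have their own shares of calls. The median log2 fold change over all genes tested was 0.05. Scaling by library totals alone moved that median to 0.46 and the split of calls to 5287 higher and 1127 lower. Counts under that scaling are to be read against this split. DESeq2 called 2063 of the same 18639 genes higher and 2428 lower, the background for its counts. Each called gene named below had both OXAITF1 values on one side of both WT values. With 2 libraries a group, no call of a single gene survived leaving out WT replicate 1 or WT replicate 2, which gave 0 calls each. The fits without OXAITF1 replicate 1 or 2 rest on the spread between the WT libraries alone. They applied the filter on low counts anew, so the members they tested in a list can differ from the number given. They made 6164 and 6096 calls, and their counts below describe the OXAITF1 library that was kept.

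**Figure D2:**
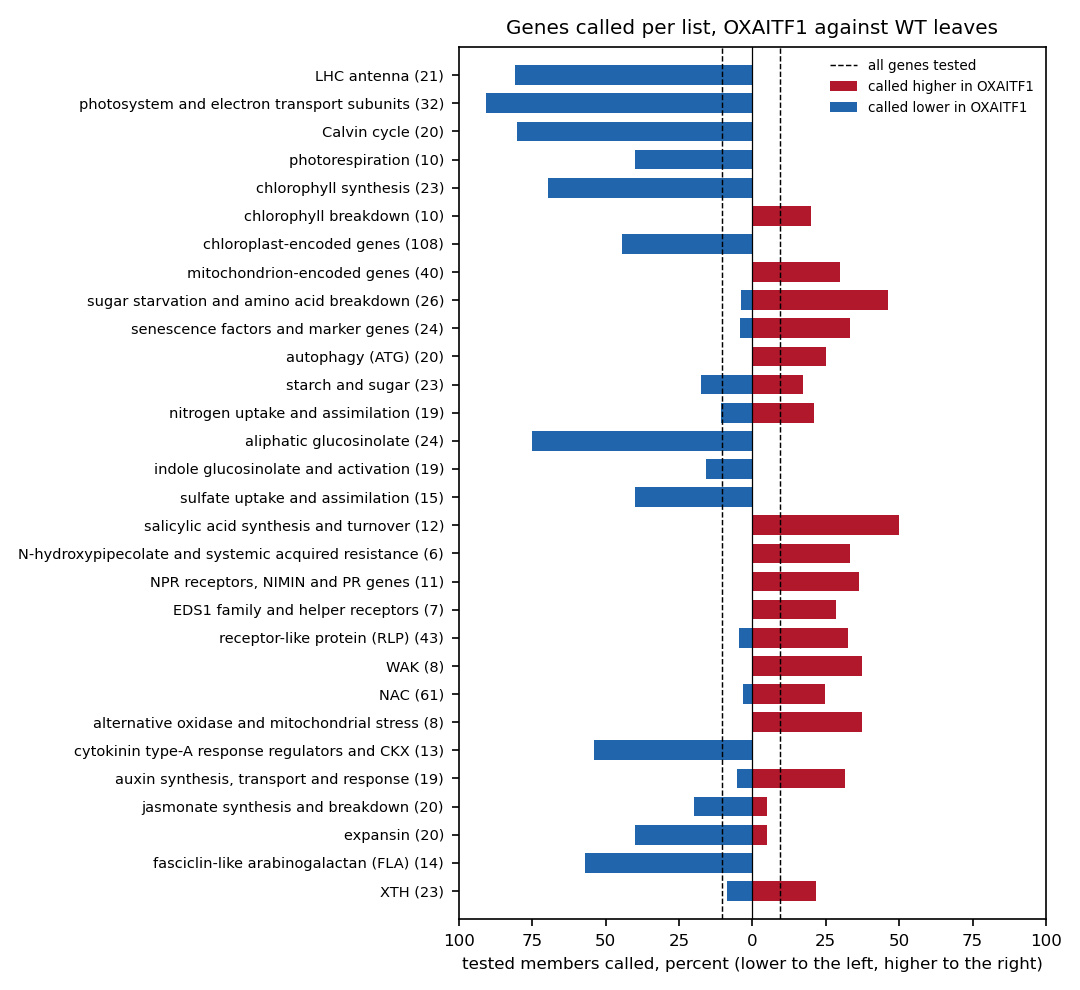
Share of the tested members of each gene list called higher (right of 0) or lower (left of 0) in OXAITF1 leaves, in percent, with the number tested after each name. Dashed lines mark the share over all 18639 genes tested, 9.36% higher and 10.4% lower.

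Light-harvesting genes fell, from the abundant trimeric antenna to minor subunits. Of 21 genes for chlorophyll a/b antenna proteins, 17 were lower in OXAITF1 leaves and 0 higher, with a median log2 fold change of -1.51 (-1.38 without OXAITF1 replicate 1 and -1.63 without replicate 2). Among photosystem II antenna genes, CAB2 had 2202 and 1883 CPM in OXAITF1 leaves, against 10648 and 9135 CPM in WT leaves (log2 fold change -2.28, SE 0.27, adjusted p = 0.0164). LHCB6, a minor antenna protein, had 1440.5 and 1564 CPM in OXAITF1 leaves, against 6866 and 6835 CPM in WT leaves. LHCB3, of the trimeric antenna, had 2757 and 2630.1 CPM in OXAITF1 leaves, against 8619 and 8391 CPM in WT leaves. LHCB2.3 fell furthest, to 236 and 133 CPM in OXAITF1 leaves, against 2292 and 1976 CPM in WT leaves. Near-identical copies such as CAB1 to CAB3, LHCB2.1 to LHCB2.3 and the Rubisco small subunit genes can share reads, so the split between them is uncertain. Of the 6 mesophyll markers 5 were lower, and 5 of the 6 are themselves members of the lists of photosynthesis and photorespiration. In bulk leaves, fewer cells of a type and less RNA per cell cannot be told apart.

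The antenna of photosystem I fell too. LHCA6, which links photosystem I to the NDH complex, had 22.2 and 20.8 CPM in OXAITF1 leaves, against 153 and 177 CPM in WT leaves, the second largest drop of the list (log2 fold change -2.94, SE 0.16). LHCA4, an abundant subunit, had 4528 and 4487 CPM in OXAITF1 leaves, against 10181 and 10192 CPM in WT leaves. The 2 most abundant antenna genes were not called. CAB1 had 18753 and 25042 CPM in OXAITF1 leaves, against 41225 and 39105 CPM in WT leaves (adjusted p = 0.142). LHB1B2 had 12295 and 13776 CPM in OXAITF1 leaves, against 20509.8 and 20753 CPM in WT leaves (adjusted p = 0.167). Both genes were lower in each OXAITF1 library than in either WT library.

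Photosystem and electron transport subunits followed, with 29 of 32 lower and 0 higher (median -1.43). FED A, the main leaf ferredoxin, had 427 and 521 CPM in OXAITF1 leaves, against 2253 and 2563 CPM in WT leaves (log2 fold change -2.34, SE 0.23, adjusted p = 0.0152). ATPD, a stalk subunit of the chloroplast ATP synthase, had 241 and 262 CPM in OXAITF1 leaves, against 1142 and 1176 CPM in WT leaves. PSAH2, of photosystem I, had 428 and 440.1 CPM in OXAITF1 leaves, against 1799 and 1831 CPM in WT leaves. PSAK, a further subunit of photosystem I, had 695 and 789.7 CPM in OXAITF1 leaves, against 2761 and 2690.5 CPM in WT leaves, and for all 4 the genotypes did not overlap. The 3 members that were not called, PSBR, FNR2 and PSAE-2, had log2 fold changes of -0.67, -1.08 and -0.74.

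Calvin cycle genes had 16 of 20 lower and 0 higher (median -1.81). RBCS1A, the main gene for the Rubisco small subunit, had 5551 and 7992 CPM in OXAITF1 leaves, against 26332 and 27515 CPM in WT leaves (log2 fold change -1.99, SE 0.34, adjusted p = 0.0283). Its copy RBCS1B had 73.4 and 89.4 CPM in OXAITF1 leaves, against 458 and 599 CPM in WT leaves. GAPA-2, a subunit of the plastid glyceraldehyde-3-phosphate dehydrogenase, fell most (log2 fold change -2.72), with 285 and 267 CPM in OXAITF1 leaves, against 1790.3 and 1840.2 CPM in WT leaves. GAPA, the other gene for this subunit, had 1105 and 1356 CPM in OXAITF1 leaves, against 1761 and 1859 CPM in WT leaves and was not called (adjusted p = 0.127). FBA1, a plastid aldolase, depended on the library. It had 839 and 182 CPM in OXAITF1 leaves, against 897 and 1157 CPM in WT leaves, near the WT level in OXAITF1 replicate 1 alone.

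**Figure D3:**
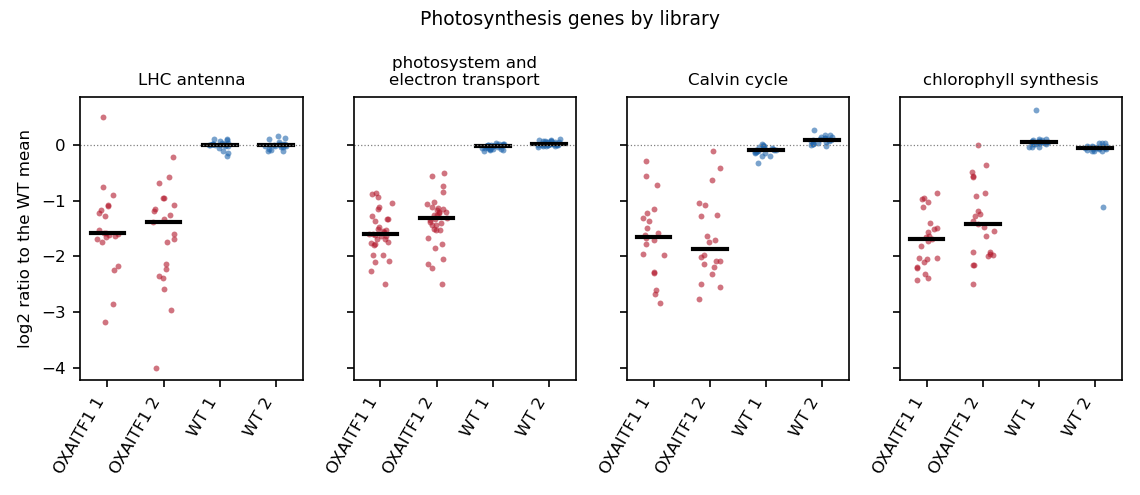
Log2 ratio of each member's CPM (+ 0.5) to the mean of the WT libraries, by library, for 4 gene lists. Each point is a gene and the bar is the median over the tested members. The medians of the OXAITF1 libraries lie between -1.86 and -1.32 in all 4 lists, below those of both WT libraries.

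Photorespiration, which recycles the products of Rubisco's reaction with oxygen, moved in part. Of 10 genes 4 fell and 0 rose (median -0.88). Over 11 genes, the median was -1.07 without OXAITF1 replicate 1 and -0.73 without replicate 2. SHM1, the mitochondrial serine hydroxymethyltransferase, had 418 and 525 CPM in OXAITF1 leaves, against 2268 and 2824 CPM in WT leaves (log2 fold change -2.43, SE 0.25, adjusted p = 0.0156). GLU1, the ferredoxin-dependent glutamate synthase that recaptures ammonium, had 497 and 527 CPM in OXAITF1 leaves, against 1155 and 1402 CPM in WT leaves. The peroxisomal aminotransferases GGT1 and AGT were not called. GGT1 had 1623 and 1761 CPM in OXAITF1 leaves, against 1492 and 1771 CPM in WT leaves. AGT had 1201 and 1578 CPM in OXAITF1 leaves, against 1094 and 1392 CPM in WT leaves, and the genotypes overlapped for both.

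Chlorophyll synthesis ran parallel, with 16 of 23 genes lower and 0 higher (median -1.67). HEMA1, glutamyl-tRNA reductase at the head of the pathway, had 145 and 171 CPM in OXAITF1 leaves, against 703 and 652 CPM in WT leaves (log2 fold change -2.10, SE 0.18, adjusted p = 0.0144). CHLI2, a subunit of magnesium chelatase, had 16.9 and 22.4 CPM in OXAITF1 leaves, against 87.2 and 85.8 CPM in WT leaves. CHLG, the synthase of the last step, had 58.7 and 51.7 CPM in OXAITF1 leaves, against 203 and 214 CPM in WT leaves. Members from the head of the pathway to its end were thus lower. Of 10 breakdown genes 2 were higher and 0 lower. Leaving out OXAITF1 replicate 1 gave 5 and 1, and leaving out replicate 2 gave 3 and 2. The called genes were NYE1 and NYE2, which start chlorophyll removal. NYE1 had 23.6 and 31.5 CPM in OXAITF1 leaves, against 10.98 and 12.9 CPM in WT leaves. NYE2 had 7.82 and 21.8 CPM in OXAITF1 leaves, against 1.195 and 2.18 CPM in WT leaves.

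Markers of other leaf cell types were set beside these results. The guard cell markers, mostly TGG1, summed to 2273 and 2472 CPM in OXAITF1 and 5177 and 4062 CPM in WT leaves, and 1 of 8 was called, lower. The phloem companion cell markers summed to 1074 and 945 CPM in OXAITF1 and 1015 and 1225 CPM in WT leaves. The xylem markers summed to 90.3 and 89.8 CPM in OXAITF1 and 80.9 and 53.9 CPM in WT leaves. The epidermis markers summed to 2073 and 1312 CPM in OXAITF1 and 1386 and 1482 CPM in WT leaves. The trichome markers, of which 2 of 6 were tested and 1 was called, higher, summed to 15.8 and 16.9 CPM in OXAITF1 and 4.41 and 3.66 CPM in WT leaves. Most of that sum was GL2, a homeodomain factor of trichomes, with 12.6 and 15.4 CPM in OXAITF1 leaves, against 3.66 and 2.39 CPM in WT leaves. The root markers summed to 7.92 and 11.3 CPM in OXAITF1 and 11.2 and 11.7 CPM in WT leaves. Guard cell sums did not overlap between the genotypes, nor did xylem and trichome sums, and the sums of phloem, epidermis and root markers overlapped. Sums can hide single markers. Of 7 phloem markers 1 was called, higher, as was 1 of 6 epidermis markers (log2 fold changes from -0.04 to 4.88). Of 6 xylem markers 1 was called, lower, against the direction of their sum. Of 2 root markers tested 0 were called. The part of cell makeup in the results was not tested.

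Chloroplast-encoded genes fell in part, and some mitochondrion-encoded genes rose. Of 108 chloroplast genes tested, 48 fell and 0 rose (median -0.98), and with scaling by library totals 28 fell and 1 rose. They took 1.99% and 2.33% of counts in OXAITF1 and 3.12% and 3.22% in WT leaves. Of 40 mitochondrial genes tested, 12 rose and 0 fell (median 1.36), with 21 higher under scaling by library totals. The CPM of all listed mitochondrial genes summed to 408 and 379 in OXAITF1 and 306 and 420.2 in WT leaves, sums that overlapped between the genotypes. As unscaled shares of counts they took 0.0484% and 0.0425% in OXAITF1 and 0.0268% and 0.0359% in WT leaves. ATMG00090 had 43.7 and 39.9 CPM in OXAITF1 leaves, against 4.41 and 7.59 CPM in WT leaves (log2 fold change 2.80, SE 0.29, adjusted p = 0.0158). Organelle transcripts depend on how RNA was selected for sequencing, which the labels do not state.

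Genes induced when leaf cells run short of sugar, and genes that break amino acids down, rose. Of 26 tested, 12 were higher and 1 lower (median 1.96). Without OXAITF1 replicate 1 the numbers were 20 and 3, and without replicate 2 they were 16 and 3. SEN1, a classical gene of darkened and ageing leaves, had 579 and 1279.7 CPM in OXAITF1 leaves, against 19.3 and 14.6 CPM in WT leaves (log2 fold change 5.78, SE 0.52, adjusted p = 0.0144). ASN1, the dark-induced asparagine synthetase, had 309 and 614 CPM in OXAITF1 leaves, against 35.9 and 13.9 CPM in WT leaves. DIN10, a raffinose synthase family gene, had 247 and 708 CPM in OXAITF1 leaves, against 84.3 and 67.6 CPM in WT leaves. These 3 were higher in both OXAITF1 libraries than in either WT library, and higher in OXAITF1 replicate 2 than in replicate 1.

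Amino acid breakdown was represented by several routes. For branched-chain amino acids, the aminotransferase BCAT-2 had 49.3 and 97.1 CPM in OXAITF1 leaves, against 0.672 and 3.09 CPM in WT leaves. IVD, isovaleryl-CoA dehydrogenase, had 71.2 and 177 CPM in OXAITF1 leaves, against 18.6 and 21.9 CPM in WT leaves. MCCA, a subunit of methylcrotonyl-CoA carboxylase, had 83.7 and 174 CPM in OXAITF1 leaves, against 30.6 and 29.4 CPM in WT leaves. For lysine, LKR, the bifunctional first enzyme, had 74.9 and 293 CPM in OXAITF1 leaves, against 7.397 and 6.75 CPM in WT leaves. All 4 rose, and all 4 were higher in OXAITF1 replicate 2 than in replicate 1. For tyrosine, TAT7 had 40.1 and 35.6 CPM in OXAITF1 leaves, against 10.7 and 10.7 CPM in WT leaves (log2 fold change 1.82, SE 0.14, adjusted p = 0.0141). PDS1, of its later breakdown, had 137 and 189 CPM in OXAITF1 leaves, against 26.97 and 34.3 CPM in WT leaves. For methionine, MGL, which splits it to methanethiol, had 195 and 148 CPM in OXAITF1 leaves, against 12.2 and 8.296 CPM in WT leaves (log2 fold change 4.07, SE 0.29, adjusted p = 0.0141). THA1, the threonine aldolase, had 27.9 and 20.6 CPM in OXAITF1 leaves and 0 counts in both WT libraries, which makes it at least 222-fold higher if the WT group is set to a floor of 3 counts in all. DIN11, an oxygenase gene named for dark induction, was the 1 member to fall, at 0.146 and 0.138 CPM in OXAITF1 and 1.42 and 1.41 CPM in WT leaves. GDH1, the glutamate dehydrogenase, had 108 and 158 CPM in OXAITF1 leaves, against 97.7 and 99.3 CPM in WT leaves and was not called (adjusted p = 0.223).

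Leaf senescence genes rose in part, 8 of 24 higher and 1 lower (median 1.43), and 12 higher and 4 lower without OXAITF1 replicate 2. NAP, a NAC factor that promotes senescence, had 73.8 and 74.5 CPM in OXAITF1 leaves, against 38.5 and 34.8 CPM in WT leaves (log2 fold change 1.02, SE 0.13, adjusted p = 0.0188). NAC019, a stress-related NAC factor, had 51.5 and 53.3 CPM in OXAITF1 leaves, against 9.64 and 4.71 CPM in WT leaves. SAG21, a small mitochondrial protein gene of stress and ageing, had 268 and 195 CPM in OXAITF1 leaves, against 43.6 and 39.6 CPM in WT leaves. SAG13, a dehydrogenase gene, had 27.2 and 4.97 CPM in OXAITF1 leaves, against 0.822 and 0.492 CPM in WT leaves, highest in OXAITF1 replicate 1. WRKY53, an early regulator, had 33.7 and 78.1 CPM in OXAITF1 leaves, against 118 and 64.5 CPM in WT leaves and was not called (adjusted p = 0.355).

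Autophagy genes, taken by their annotated names, had 5 of 20 higher and 0 lower. Of the ATG8 family, whose lipid-bound form builds the autophagosome, ATG8B had 25.9 and 39.3 CPM in OXAITF1 leaves, against 7.62 and 8.72 CPM in WT leaves (log2 fold change 1.99, SE 0.26, adjusted p = 0.0182). APG8A had 34.8 and 44.1 CPM in OXAITF1 leaves, against 13.7 and 15.04 CPM in WT leaves. APG5, of the conjugation machinery, had 15.8 and 17.1 CPM in OXAITF1 leaves, against 7.62 and 8.37 CPM in WT leaves. Without OXAITF1 replicate 1, 11 members were higher, and with scaling by library totals 16.

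The lists of starch and sugar and of nitrogen moved in both directions. STP1, a hexose importer, had 418 and 1022 CPM in OXAITF1 leaves, against 131 and 89.1 CPM in WT leaves (log2 fold change 2.71, SE 0.51, adjusted p = 0.0325). STP13, of the same family, had 98.4 and 152 CPM in OXAITF1 leaves, against 37.4 and 53.3 CPM in WT leaves. The wall invertase cwINV1 had 26.3 and 23.9 CPM in OXAITF1 leaves, against 11.3 and 7.03 CPM in WT leaves. In starch synthesis ADG2, a large subunit of ADP-glucose pyrophosphorylase, had 70.3 and 90.2 CPM in OXAITF1 leaves, against 244 and 249 CPM in WT leaves. SS1, a starch synthase, had 75.3 and 49.4 CPM in OXAITF1 leaves, against 162 and 191 CPM in WT leaves. Over the starch and sugar list, 4 of 23 rose and 4 fell, against 5 and 12 without OXAITF1 replicate 1, 7 and 8 without replicate 2, and 6 and 7 with DESeq2. NIA2, the main nitrate reductase, had 36.3 and 91.8 CPM in OXAITF1 leaves, against 242 and 313 CPM in WT leaves. NIR1, nitrite reductase, had 30.2 and 50.1 CPM in OXAITF1 leaves, against 221 and 245 CPM in WT leaves (log2 fold change -2.54, SE 0.29, adjusted p = 0.0164). Both were lower in each OXAITF1 library than in either WT library. The urea transporter DUR3 had 57.3 and 34.4 CPM in OXAITF1 leaves, against 3.06 and 5.69 CPM in WT leaves. The amino acid transporter LHT1 had 52.4 and 63.9 CPM in OXAITF1 leaves, against 19.6 and 27.5 CPM in WT leaves. Both rose. The nitrogen list had 4 higher and 2 lower of 19. The balance turned to 6 higher and 8 lower without OXAITF1 replicate 1 (median -0.66, against 0.15 with both), to 5 and 6 without replicate 2, and to 5 and 7 with DESeq2. The plastid glutamine synthetase GS2 had 556 and 786 CPM in OXAITF1 leaves, against 1198 and 1289 CPM in WT leaves and was not called (adjusted p = 0.0653).

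**Figure D4:**
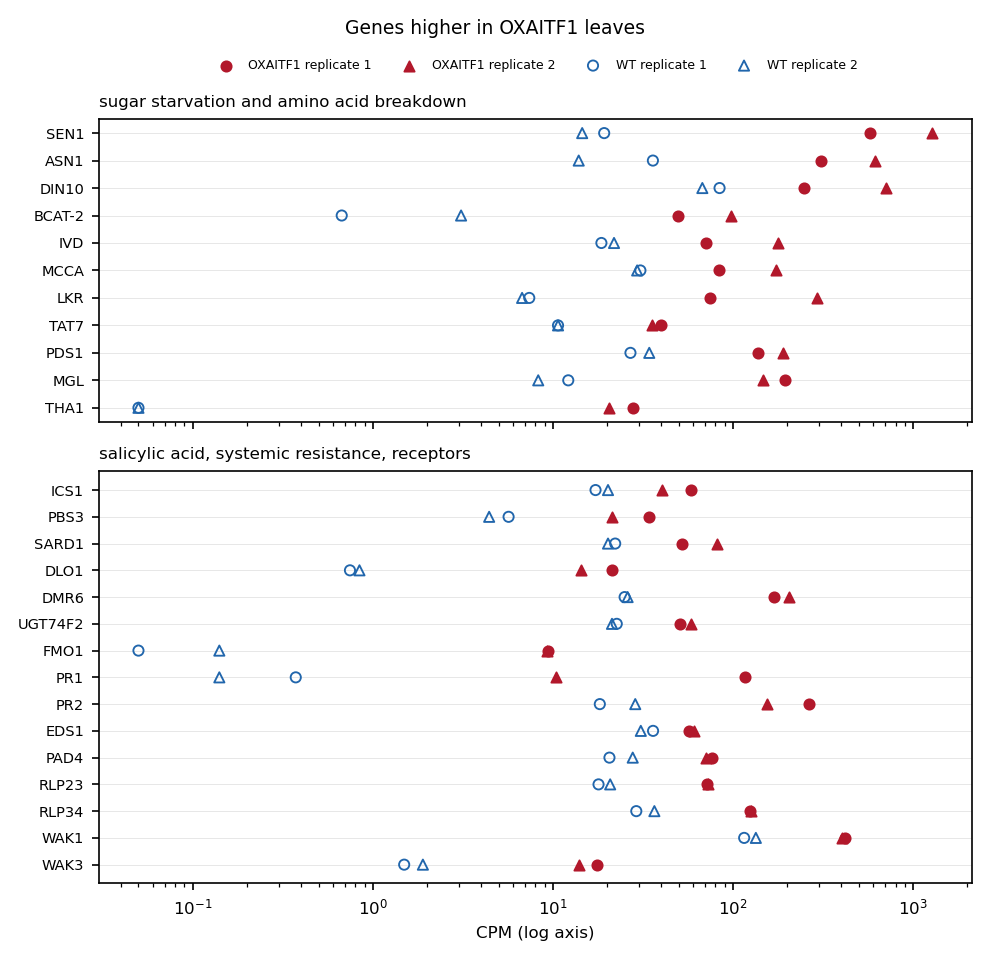
CPM by library on a log axis, for called genes of sugar starvation and amino acid breakdown (top) and of salicylic acid, systemic resistance and cell surface receptors (bottom). Filled circles and triangles are OXAITF1 replicates 1 and 2, and open ones WT replicates 1 and 2, with values under 0.05 CPM drawn at 0.05. For every gene both OXAITF1 values lie right of both WT values, and PR1 has the widest gap between the OXAITF1 libraries.

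Aliphatic glucosinolates are sulfur-rich defence compounds built from methionine in 3 stages, and genes of each stage fell. Of 24 genes tested, 18 were lower and 0 higher (median log2 fold change -3.70). In chain elongation, the aminotransferase BCAT4 had 8.16 and 14.99 CPM in OXAITF1 leaves, against 185 and 217 CPM in WT leaves. The synthase MAM1 had 19.9 and 47.3 CPM in OXAITF1 leaves, against 382 and 435 CPM in WT leaves. The isomerase subunit IPMI1 had 3.45 and 2.21 CPM in OXAITF1 leaves, against 86.5 and 93.99 CPM in WT leaves (log2 fold change -4.995, SE 0.27, adjusted p = 0.0141). IMD1, the dehydrogenase of that stage, had 7.53 and 8.001 CPM in OXAITF1 leaves, against 251 and 258 CPM in WT leaves, nearly equal within each genotype. IIL1, the isomerase large subunit that leucine synthesis also uses, fell least of the called genes, with 129 and 134 CPM in OXAITF1 leaves, against 333 and 362 CPM in WT leaves.

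In core structure formation CYP79F1 had 6.898 and 14.3 CPM in OXAITF1 leaves, against 361 and 409 CPM in WT leaves. CYP83A1, which acts after it, had 38.8 and 58.8 CPM in OXAITF1 leaves, against 444 and 563 CPM in WT leaves. GSTU20, a glutathione transferase of the pathway, had 16.7 and 8.14 CPM in OXAITF1 leaves, against 426 and 423 CPM in WT leaves (log2 fold change -5.10, SE 0.42, adjusted p = 0.0144). The sulfotransferases SOT17 and SOT18 of the last core step fell as well. SOT17 had 14.7 and 6.12 CPM in OXAITF1 leaves, against 38.8 and 45.4 CPM in WT leaves. SOT18 had 24.6 and 15.6 CPM in OXAITF1 leaves, against 96.01 and 104 CPM in WT leaves. In side chain modification, FMO GS-OX1 had 1.51 and 0.782 CPM in OXAITF1 leaves, against 40.3 and 41.5 CPM in WT leaves. AOP2, which modifies the side chain further, had 2.19 and 1.196 CPM in OXAITF1 leaves, against 29.2 and 36.6 CPM in WT leaves. FMO GS-OX5, of the same family, had 23.7 and 25.9 CPM in OXAITF1 leaves, against 28.4 and 36.1 CPM in WT leaves and was not called (adjusted p = 0.182). FMO GS-OX2 had 42.3 and 1.43 CPM in OXAITF1 leaves, against 2.91 and 1.27 CPM in WT leaves. FMO GS-OX4 had 14.7 and 4.28 CPM in OXAITF1 leaves, against 3.14 and 3.59 CPM in WT leaves. Both were highest in OXAITF1 replicate 1, against the direction of the list, and neither was called.

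Of the 3 MYB activators of the pathway 2 fell. MYB29 had 3.16 and 0.644 CPM in OXAITF1 leaves, against 34.97 and 37.5 CPM in WT leaves (log2 fold change -4.26, SE 0.70, adjusted p = 0.0254). MYB76 had 0.389 and 0.2299 CPM in OXAITF1 leaves, against 4.03 and 4.71 CPM in WT leaves. MYB28, the third, had 46.4 and 15.6 CPM in OXAITF1 leaves, against 76.3 and 107 CPM in WT leaves. It was lower in both OXAITF1 libraries, widely apart from each other, and was not called (adjusted p = 0.111). Of 19 genes for indole glucosinolates and glucosinolate activation, 3 fell and 0 rose (median -0.94), and 2 of the 3, SUR1 and UGT74B1, serve both branches. DESeq2 gave 9 lower and 1 higher, the fit without OXAITF1 replicate 1 gave 11 and 2, and that without replicate 2 gave 11 and 1. With scaling by library totals the counts were 2 lower and 2 higher. The difference between the aliphatic and indole branches was not tested. TGG1, the myrosinase that activates glucosinolates, had 2201 and 2402 CPM in OXAITF1 leaves, against 5080.2 and 3965 CPM in WT leaves (adjusted p = 0.057).

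Sulfate assimilation supplies that pathway. Of 15 genes 6 fell and 0 rose (median -1.59), with 13 lower without OXAITF1 replicate 1 and 9 without replicate 2. The transporter SULTR2;1 had 54.2 and 60.5 CPM in OXAITF1 leaves, against 206 and 263 CPM in WT leaves (log2 fold change -2.03, SE 0.19, adjusted p = 0.0152). APS1, ATP sulfurylase, had 249 and 189 CPM in OXAITF1 leaves, against 637 and 793 CPM in WT leaves. SIR, sulfite reductase, had 173 and 138 CPM in OXAITF1 leaves, against 430.0 and 507 CPM in WT leaves. APK2, which makes the sulfate donor for the sulfotransferases, had 28.6 and 15.8 CPM in OXAITF1 leaves, against 127 and 145 CPM in WT leaves. Of the 3 APS reductases, APR3 was called, with 36.4 and 10.99 CPM in OXAITF1 leaves, against 174 and 155 CPM in WT leaves. APR1 had 39.7 and 9.196 CPM in OXAITF1 leaves, against 164 and 167 CPM in WT leaves. APR2 had 82.4 and 18.99 CPM in OXAITF1 leaves, against 136 and 190.2 CPM in WT leaves. Both lay over 4-fold apart between the OXAITF1 libraries, and neither was called. APR3 overlaps the autophagy gene APG8A, and reads from the shared stretch cannot be told apart if the counting did not use strand. Markers induced by sulfur deficiency had 1 lower and 0 higher of 6 tested, against 6 and 0 without OXAITF1 replicate 1 and 4 and 1 without replicate 2. LSU2, one of them, had 7.72 and 1.84 CPM in OXAITF1 leaves, against 20.1 and 21.1 CPM in WT leaves (adjusted p = 0.0887).

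**Figure D5:**
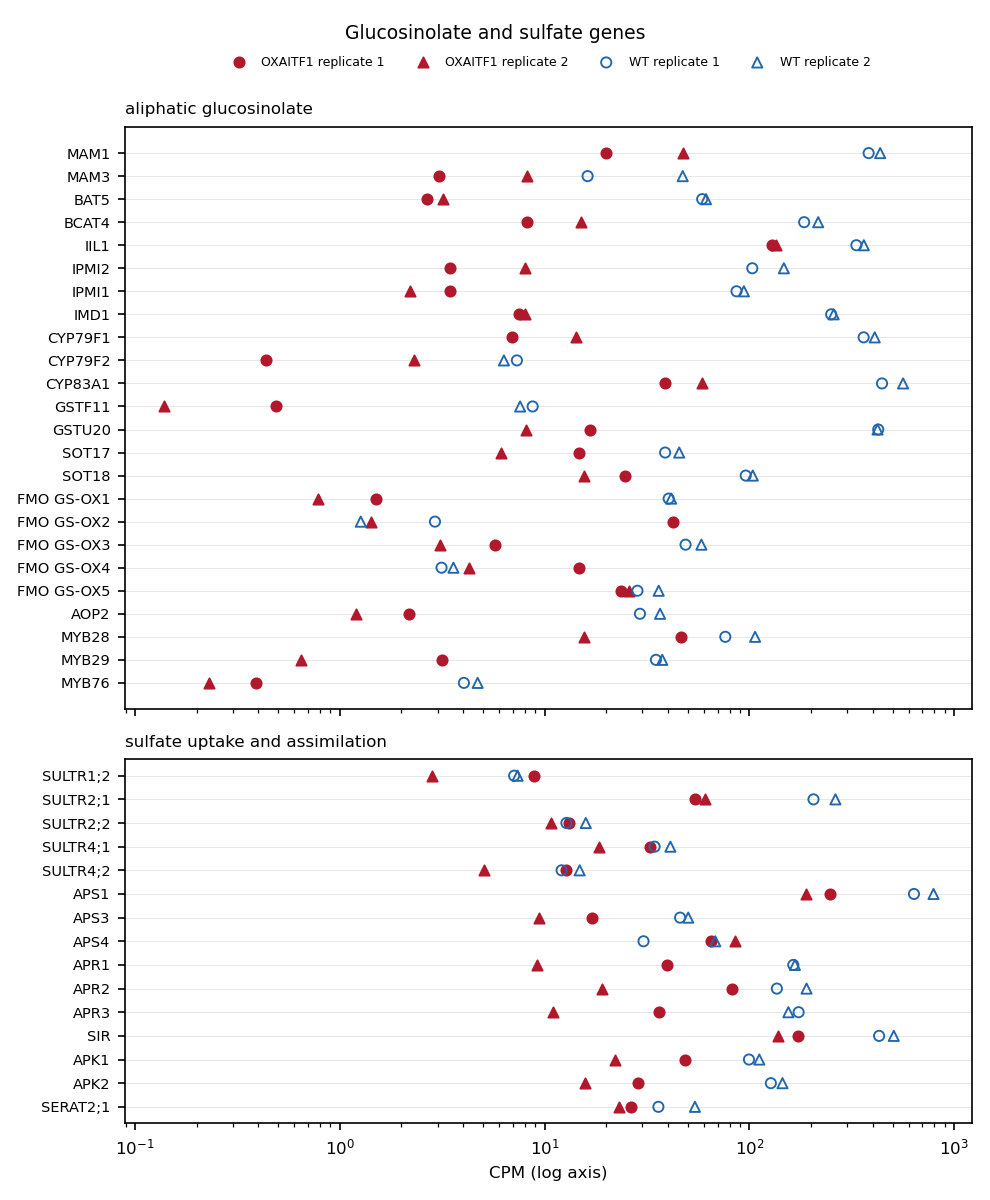
CPM by library on a log axis for the listed genes of aliphatic glucosinolate synthesis and for sulfate uptake and assimilation, in the order of the lists. Filled circles and triangles are OXAITF1 replicates 1 and 2, and open ones WT replicates 1 and 2. The WT pairs lie close together for most genes, and for most glucosinolate genes both OXAITF1 values lie to their left.

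Salicylic acid genes rose at several steps. Of 12 tested, 6 were higher and 0 lower (median 0.98). For synthesis, ICS1, isochorismate synthase, had 58.5 and 40.4 CPM in OXAITF1 leaves, against 17.3 and 20.2 CPM in WT leaves (log2 fold change 1.40, SE 0.23, adjusted p = 0.0262). PBS3, which acts on its product, had 34.2 and 21.4 CPM in OXAITF1 leaves, against 5.68 and 4.43 CPM in WT leaves. SARD1, a factor that activates ICS1, had 52.2 and 81.5 CPM in OXAITF1 leaves, against 22.2 and 20.2 CPM in WT leaves. Its partner CBP60G had 51.9 and 81.99 CPM in OXAITF1 leaves, against 49.2 and 41.2 CPM in WT leaves and was not called (adjusted p = 0.186). For turnover, the hydroxylase DLO1 had 21.3 and 14.3 CPM in OXAITF1 leaves, against 0.747 and 0.844 CPM in WT leaves. DMR6, of the same family, had 168 and 205 CPM in OXAITF1 leaves, against 25.03 and 26.01 CPM in WT leaves (log2 fold change 2.87, SE 0.18, adjusted p = 0.0141). The glucosyltransferase UGT74F2 had 50.5 and 58.5 CPM in OXAITF1 leaves, against 22.6 and 21.3 CPM in WT leaves. EDS5, the plastid exporter of isochorismate, had 19.97 and 10.6 CPM in OXAITF1 leaves, against 7.99 and 11.6 CPM in WT leaves (adjusted p = 0.279). Genes of synthesis and of turnover were thus higher together.

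Systemic acquired resistance rests on N-hydroxypipecolic acid, which ALD1 and FMO1 help make. FMO1 had 9.38 and 9.24 CPM in OXAITF1 leaves, against 0 and 0.141 CPM in WT leaves (log2 fold change 6.87, SE 0.64, adjusted p = 0.0151). ALD1 had 33.1 and 3.91 CPM in OXAITF1 leaves, against 0 and 0.352 CPM in WT leaves. Its OXAITF1 libraries differed over 8-fold and it was not called (adjusted p = 0.0522). Of 6 genes of this list, 2 rose and 0 fell, with 6 higher without OXAITF1 replicate 1 and 5 without replicate 2.

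Downstream of salicylic acid, PR1, the usual marker of the pathway, had 116 and 10.3 CPM in OXAITF1 leaves, against 0.374 and 0.141 CPM in WT leaves (log2 fold change 7.92, SE 1.69, adjusted p = 0.0405). Both OXAITF1 values exceeded both WT values, and the log2 fold change was 5.31 without OXAITF1 replicate 1. PR2, a beta-glucanase, had 266 and 155 CPM in OXAITF1 leaves, against 18.2 and 28.7 CPM in WT leaves. NIMIN1, an inhibitor of the receptor NPR1, had 6.898 and 12.3 CPM in OXAITF1 leaves, against 1.42 and 1.55 CPM in WT leaves. The receptors themselves were not called. NPR1 had 42.2 and 53.8 CPM in OXAITF1 leaves, against 40.3 and 39.5 CPM in WT leaves. NPR3 had 47.02 and 57.1 CPM in OXAITF1 leaves, against 50.8 and 38.1 CPM in WT leaves, with overlap between the genotypes. Over the list of receptors, NIMIN and PR genes, 4 of 11 rose and 0 fell, with 8 higher under scaling by library totals. EDS1 and PAD4, lipase-like partners upstream of salicylic acid in immunity, rose. EDS1 had 57.2 and 60.8 CPM in OXAITF1 leaves, against 36.01 and 30.8 CPM in WT leaves. PAD4 had 76.4 and 70.9 CPM in OXAITF1 leaves, against 20.6 and 27.8 CPM in WT leaves (log2 fold change 1.604, SE 0.19, adjusted p = 0.0169). SAG101, the alternative partner of EDS1, had 27.9 and 29.9 CPM in OXAITF1 leaves, against 29.4 and 27.3 CPM in WT leaves and was not called (adjusted p = 0.903).

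Cell surface receptors rose in 2 families. Of 43 receptor-like proteins, which carry outer leucine-rich repeats and no kinase, 14 were higher and 2 lower (median 0.79). Without OXAITF1 replicate 2 the counts were 20 and 5, and with scaling by library totals 24 and 1. RLP23, the receptor of the pattern nlp20, had 71.6 and 72.4 CPM in OXAITF1 leaves, against 17.9 and 20.8 CPM in WT leaves. RLP34 had 124 and 126 CPM in OXAITF1 leaves, against 29.1 and 36.6 CPM in WT leaves (log2 fold change 1.93, SE 0.17, adjusted p = 0.0144). RLP41 had 67.5 and 55.9 CPM in OXAITF1 leaves, against 8.07 and 12.7 CPM in WT leaves. RLP31 fell, with 11.6 and 10.3 CPM in OXAITF1 leaves, against 42.4 and 33.7 CPM in WT leaves. Several of these genes lie in tandem and are alike in sequence, so reads may be split between neighbours. Of 8 wall-associated kinases 3 rose and 0 fell (median 0.59), and 5 rose with scaling by library totals. The median was 1.14 without OXAITF1 replicate 1, over 10 members, and 0.60 without replicate 2. WAK1 had 417 and 405 CPM in OXAITF1 leaves, against 115 and 134 CPM in WT leaves (log2 fold change 1.72, SE 0.17, adjusted p = 0.0152). WAK3 had 17.6 and 14.02 CPM in OXAITF1 leaves, against 1.49 and 1.898 CPM in WT leaves. The OXAITF1 libraries lay close together for RLP23, RLP34, WAK1 and WAK3.

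Camalexin, an antimicrobial made from tryptophan, had 2 of 5 genes higher, and 5 without OXAITF1 replicate 2. PAD3, its last enzyme, had 41.9 and 16.1 CPM in OXAITF1 leaves, against 2.54 and 2.88 CPM in WT leaves (log2 fold change 3.41, SE 0.54, adjusted p = 0.0243). CYP71A13, an earlier enzyme, had 23.6 and 3.13 CPM in OXAITF1 leaves, against 1.64 and 0.633 CPM in WT leaves, with a wide gap between OXAITF1 libraries and no call. In the endoplasmic reticulum, where receptors fold, 2 of 20 genes rose, a share near the background. The count was 3 without OXAITF1 replicate 1, 12 without replicate 2 and 8 with scaling by library totals. The stress sensor IRE1A had 76.3 and 83.6 CPM in OXAITF1 leaves, against 33.8 and 38.5 CPM in WT leaves. The calreticulin CRT3 had 202 and 228 CPM in OXAITF1 leaves, against 103 and 114 CPM in WT leaves. BIP1, the main chaperone there, had 242 and 148 CPM in OXAITF1 leaves, against 151 and 162 CPM in WT leaves and was not called.

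Of 61 NAC factors tested, 15 were higher and 2 lower (median 0.45), with 26 and 1 under scaling by library totals. SOG1, the regulator of the plant DNA damage response, had 14.3 and 18.2 CPM in OXAITF1 leaves, against 6.87 and 6.75 CPM in WT leaves (log2 fold change 1.25, SE 0.20, adjusted p = 0.0247). NAC102 fell, with 32.7 and 28.1 CPM in OXAITF1 leaves, against 86.2 and 70.7 CPM in WT leaves. Among mitochondrial stress genes, NDA2, an alternative NADH dehydrogenase, had 22.6 and 16.9 CPM in OXAITF1 leaves, against 9.04 and 9.56 CPM in WT leaves. OM66, an outer membrane protein, had 47.02 and 58.4 CPM in OXAITF1 leaves, against 22.9 and 21.8 CPM in WT leaves. AOX1A, the main alternative oxidase, had 41.7 and 35.3 CPM in OXAITF1 leaves, against 30.04 and 36.4 CPM in WT leaves and was not called (adjusted p = 0.415).

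Cytokinin response genes fell. Of 13 type-A response regulators and cytokinin oxidases tested, 7 were lower and 0 higher (median -1.61). The regulators are induced by cytokinin and dampen its signal. ARR4 had 10.6 and 21.3 CPM in OXAITF1 leaves, against 109 and 85.1 CPM in WT leaves (log2 fold change -2.61, SE 0.39, adjusted p = 0.0216). ARR5 had 2.19 and 3.86 CPM in OXAITF1 leaves, against 19.1 and 12.2 CPM in WT leaves. ARR9 had 7.87 and 6.897 CPM in OXAITF1 leaves, against 21.97 and 23.1 CPM in WT leaves. CKX4, an oxidase that breaks cytokinin down, had 3.55 and 5.79 CPM in OXAITF1 leaves, against 14.3 and 15.4 CPM in WT leaves. ARR8 had 14.6 and 4.51 CPM in OXAITF1 leaves, against 18.4 and 16.03 CPM in WT leaves. It was lower in both OXAITF1 libraries, close to WT levels in replicate 1, and not called. Of the 13 members, 3 had a log2 fold change above 0, up to 1.38, and none of these was called.

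Auxin genes moved mostly upward, 6 of 19 higher and 1 lower, against 11 and 0 with scaling by library totals. WES1, which conjugates auxin to amino acids, had 57.6 and 108 CPM in OXAITF1 leaves, against 8.22 and 5.98 CPM in WT leaves (log2 fold change 3.55, SE 0.39, adjusted p = 0.0158). YUC8, an enzyme of auxin synthesis, had 4.13 and 6.25 CPM in OXAITF1 leaves, against 0.149 and 0 CPM in WT leaves. IAA29, a response repressor, had 45.7 and 56.97 CPM in OXAITF1 leaves, against 17.5 and 12.7 CPM in WT leaves. IAA1 fell, with 7.68 and 6.71 CPM in OXAITF1 leaves, against 17.2 and 13.2 CPM in WT leaves. Of 48 SAUR genes, small auxin-induced growth genes, 7 fell and 0 rose, and with scaling by library totals 4 fell and 4 rose. Without OXAITF1 replicate 1 it was 14 that fell and 4 that rose, and without replicate 2 it was 13 and 0. SAUR6 had 9.81 and 10.2 CPM in OXAITF1 leaves, against 35.5 and 51.5 CPM in WT leaves. Auxin carriers were not called, and PIN7, the most abundant, had 205 and 182 CPM in OXAITF1 leaves, against 249.6 and 286 CPM in WT leaves.

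Of 20 genes of jasmonate synthesis and breakdown, 4 fell and 1 rose, whereas with scaling by library totals 1 fell and 3 rose. Without OXAITF1 replicate 1, 11 were lower and 2 higher, and without replicate 2 it was 7 and 6. AOC2, allene oxide cyclase, had 196 and 149 CPM in OXAITF1 leaves, against 596 and 655 CPM in WT leaves (log2 fold change -1.86, SE 0.21, adjusted p = 0.0161). AOS, allene oxide synthase, had 254 and 124 CPM in OXAITF1 leaves, against 645 and 719.9 CPM in WT leaves. LOX2, the lipoxygenase of wounded leaves, had 1457 and 635 CPM in OXAITF1 leaves, against 3879 and 3884 CPM in WT leaves (adjusted p = 0.0501). CYP94B3, which inactivates the hormone, was the member that rose, with 2.67 and 3.72 CPM in OXAITF1 leaves, against 0.374 and 0 CPM in WT leaves. Of 8 jasmonate and ethylene defensin genes, 2 rose and 0 fell (median 0.23), and 4 rose with scaling by library totals. PDF1.2, one of those not called, had 32.01 and 92.1 CPM in OXAITF1 leaves, against 28.1 and 131 CPM in WT leaves.

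Among wall genes, expansins and arabinogalactan proteins fell. Expansins loosen walls of growing cells, and 8 of 20 fell against 1 that rose (median -0.82). With scaling by library totals 5 fell and 3 rose (median -0.40). EXPA1 had 35.6 and 22.1 CPM in OXAITF1 leaves, against 185 and 248 CPM in WT leaves (log2 fold change -2.91, SE 0.32, adjusted p = 0.0158). EXPB1 had 2.48 and 1.43 CPM in OXAITF1 leaves, against 18.9 and 20.3 CPM in WT leaves. PNP-A, an expansin-related secreted peptide and the 1 member to rise, had 40.03 and 36.5 CPM in OXAITF1 leaves, against 3.51 and 2.32 CPM in WT leaves. Of 14 fasciclin-like arabinogalactan proteins 8 fell and 0 rose (median -0.93), and 5 fell and 1 rose with scaling by library totals. FLA8 had 138 and 153 CPM in OXAITF1 leaves, against 405 and 344 CPM in WT leaves. FLA13 had 14.3 and 17.98 CPM in OXAITF1 leaves, against 43.4 and 53.1 CPM in WT leaves.

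Xyloglucan enzymes (XTH), which cut and rejoin wall polymers, went both ways, 5 of 23 higher and 2 lower. Without OXAITF1 replicate 1 the counts were 10 and 3, and without replicate 2 6 and 5. XTH7 had 24.8 and 19.9 CPM in OXAITF1 leaves, against 165 and 208 CPM in WT leaves (log2 fold change -3.06, SE 0.22, adjusted p = 0.0141). XTH31 had 0.972 and 0.138 CPM in OXAITF1 leaves, against 26.002 and 40.8 CPM in WT leaves. Members that rose included XTH25, with 37.6 and 65.9 CPM in OXAITF1 leaves, against 2.02 and 1.48 CPM in WT leaves, and XTH24, with 104 and 327 CPM in OXAITF1 leaves, against 10.4 and 25.9 CPM in WT leaves. Of 8 cellulose synthases 2 fell, against 4 without OXAITF1 replicate 1, 3 without replicate 2, where 2 rose, and 1 with scaling by library totals, where 1 rose. CESA2 had 97.7 and 98.9 CPM in OXAITF1 leaves, against 200.1 and 209.8 CPM in WT leaves. CESA5 had 77.97 and 42.1 CPM in OXAITF1 leaves, against 173 and 146 CPM in WT leaves. CESA1, of primary walls, had 439 and 364 CPM in OXAITF1 leaves, against 530.3 and 553 CPM in WT leaves and was not called. Genes of DNA replication had 3 of 19 lower, the helicase subunits MCM2, MCM3 and MCM5, a share near the background, with 7 lower without OXAITF1 replicate 2 and 1 with scaling by library totals. MCM2 had 4.71 and 5.98 CPM in OXAITF1 leaves, against 17.6 and 11.2 CPM in WT leaves.

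Of flowering genes, FUL, a MADS factor of the floral transition, had 14.4 and 6.81 CPM in OXAITF1 leaves, against 0.897 and 0.703 CPM in WT leaves (log2 fold change 3.72, SE 0.50, adjusted p = 0.0192). FD, the partner of florigen, had 6.07 and 7.63 CPM in OXAITF1 leaves, against 1.87 and 2.601 CPM in WT leaves. SOC1 had 60.6 and 89.1 CPM in OXAITF1 leaves, against 39.003 and 44.6 CPM in WT leaves (adjusted p = 0.0672). The list had 2 of 10 higher and 0 lower, and 4 higher without OXAITF1 replicate 2 or with scaling by library totals.

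Ranked by the change in mean CPM among called genes with a symbol, the largest rises outside the lists were TCTP, GSTF2, BXL1, DYL1, ARFA1E and DI19. TCTP, a conserved growth-related protein, had 2002 and 2079 CPM in OXAITF1 leaves, against 764 and 702 CPM in WT leaves (log2 fold change 1.48, SE 0.19, adjusted p = 0.0182). GSTF2, a glutathione transferase, had 1278 and 1734 CPM in OXAITF1 leaves, against 322 and 352 CPM in WT leaves. ARFA1E, a small GTPase of vesicle traffic, had 931 and 957 CPM in OXAITF1 leaves, against 311 and 289 CPM in WT leaves. DI19, a zinc finger protein of drought responses, had 976 and 916 CPM in OXAITF1 leaves, against 292 and 318 CPM in WT leaves. The OXAITF1 libraries lay close for TCTP, ARFA1E and DI19. They lay apart for BXL1, a wall xylosidase, with 340.2 and 1288 CPM in OXAITF1 leaves, against 40.2 and 61.9 CPM in WT leaves. They lay apart too for DYL1, a dormancy-associated gene, with 397 and 1002 CPM in OXAITF1 leaves, against 63.3 and 36.2 CPM in WT leaves. The falls by this measure were all photosynthesis genes, CAB2, CAB3, LHB1B1, LHCB3, LHCB5, LHCA4, RBCS1A and RCA.

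Ranked by fold among called genes that averaged at least 10 CPM in the higher genotype, the rises were THA1, UMAMIT33, PR1, CSLG2, PYD4, NIT2, SEN1 and HAI1. UMAMIT33, an amino acid exporter family gene, had 13.1 and 22.5 CPM in OXAITF1 leaves and 0 counts in both WT libraries, at least 165-fold higher. PYD4, of pyrimidine breakdown, had 105 and 14.5 CPM in OXAITF1 leaves, against 0.747 and 0.562 CPM in WT leaves. HAI1, a phosphatase that dampens abscisic acid signalling, had 62.6 and 15.6 CPM in OXAITF1 leaves, against 0.822 and 0.633 CPM in WT leaves. CSLG2, of a cellulose synthase-like family, had 18.9 and 4.41 CPM in OXAITF1 leaves, against 0 and 0.141 CPM in WT leaves. PYD4, HAI1, CSLG2 and PR1 all had the larger value in OXAITF1 replicate 1. NIT2, a nitrilase, had 9.33 and 22.2 CPM in OXAITF1 leaves, against 0.224 and 0.141 CPM in WT leaves, larger in replicate 2. Under the same limit the falls by fold were XTH31, MES18, MEE3 and 5 aliphatic glucosinolate genes. MEE3, a small MYB-related gene, had 0.291 and 0.552 CPM in OXAITF1 leaves, against 15.8 and 22.3 CPM in WT leaves (log2 fold change -5.47, SE 0.39, adjusted p = 0.0141). MES18, a methyl esterase gene that overlaps a neighbour, had 1.07 and 0.09196 CPM in OXAITF1 leaves, against 21.1 and 38.7 CPM in WT leaves. Below the limit, GRP9, a glycine-rich protein gene, had 0 counts in both OXAITF1 libraries and 1.94 and 1.76 CPM in WT leaves, at least 26.1-fold lower against the same floor of 3 counts.

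Promoters were read for the letters of 5 motifs in the 250 bases before the annotated start of each tested gene on either strand, in TAIR10.1 from RefSeq. The GT-box (GGTTAA), bound by trihelix factors, stood in 15.0% of windows of genes called higher by at least 2-fold, in 13.3% of those called lower by at least 2-fold and in 15.2% of all 18473 windows. The W-box core (TTGAC), bound by WRKY factors, stood in 51.6%, 42.3% and 44.6%, the G-box (CACGTG) in 8.11%, 8.17% and 7.44%, the I-box (GATAAG) in 14.5%, 14.7% and 12.5%, and the evening element (AAAATATCT) in 2.81%, 3.74% and 2.57%. A match describes letters and is not a binding site. Of 21 antenna genes 5 (23.8%) held a G-box, against 34.8% of 23 clock, 19.2% of 26 sugar starvation and 18.8% of 32 photosystem genes. In the other lists read it stood in 0% to 12.5% of windows. Of 23 clock genes 6 (26.1%) held an evening element, which stood in 0% to 9.09% of windows in the other lists. Across all the lists read, the W-box core stood in 28.6% to 54.2% of windows, lowest in antenna and highest in senescence genes. The GT-box stood in 9.09% to 25% of windows and the I-box in 17.4% to 25%.

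In the windows of 4 called genes, capitals mark the motif named beside each gene and no other of the 5, each window 250 bases long, 5′ to 3′ on the gene's strand. These genes were picked by hand, each with a motif that its window holds, and do not stand for called genes at large. DMR6 (chr5:8378509-8378758, plus strand, GT-box) and EDS1 (chr3:17758148-17758397, minus strand, W-box core and GT-box) were higher in OXAITF1 leaves. LHCB2.3 (chr3:10255656-10255905, plus strand, G-box) and MYB76 (chr5:2449777-2450026, plus strand, W-box core) were lower. None of the windows overlaps another annotated gene.
DMR6: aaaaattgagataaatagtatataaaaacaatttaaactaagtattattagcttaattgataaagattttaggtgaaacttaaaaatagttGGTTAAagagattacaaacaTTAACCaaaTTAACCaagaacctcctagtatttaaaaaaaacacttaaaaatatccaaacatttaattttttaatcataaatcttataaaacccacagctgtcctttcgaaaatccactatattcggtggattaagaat
EDS1: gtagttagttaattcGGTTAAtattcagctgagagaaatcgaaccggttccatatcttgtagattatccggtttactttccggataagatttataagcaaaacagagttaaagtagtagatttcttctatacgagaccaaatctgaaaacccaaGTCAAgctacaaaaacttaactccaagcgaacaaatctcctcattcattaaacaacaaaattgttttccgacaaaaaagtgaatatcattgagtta
LHCB2.3: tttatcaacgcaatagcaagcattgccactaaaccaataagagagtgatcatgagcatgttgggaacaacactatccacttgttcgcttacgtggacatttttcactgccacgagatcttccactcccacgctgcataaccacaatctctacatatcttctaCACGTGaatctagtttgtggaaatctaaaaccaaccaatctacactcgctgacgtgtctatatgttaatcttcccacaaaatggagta
MYB76: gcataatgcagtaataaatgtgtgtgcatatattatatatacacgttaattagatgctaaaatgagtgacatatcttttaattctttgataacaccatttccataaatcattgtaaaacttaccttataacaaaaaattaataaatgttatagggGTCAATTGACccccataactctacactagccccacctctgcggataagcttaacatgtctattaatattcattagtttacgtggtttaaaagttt
The DMR6 window held 3 GT-box matches, the EDS1 window 2 matches over both motifs, the LHCB2.3 window 1 G-box and the MYB76 window 2 W-box cores. The EDS1 and MYB76 windows also held the I-box letters, left in lower case.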

How the data were processed

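RNA-seq libraries of OXAITF1 and WT leaves (2 each) were analysed. HISAT2 2.1.0, featureCounts, Subread 1.6.5 and the TAIR10 build are named in the submitters' processing notes. For strand and multi-mapping reads, no setting is given in the sources used here. The deposited values are whole read counts per gene, not normalized, and the 4 columns of the leaf table equal the single-library files. Identifiers matched the TAIR10.1 RefSeq annotation for 23057 of 23318 genes.

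Genes passing filterByExpr were scaled with TMM factors and tested with edgeR 4.0.16 (glmQLFit, glmQLFTest, R 4.3.3, group only, 2 residual degrees of freedom), two-sided, with Benjamini-Hochberg adjustment over all 18639 genes. Calls were made at adjusted p under 0.05. DESeq2 1.42.0 was an alternative. The test was tried on simulated counts drawn with equal spread in both genotypes. That trial does not cover the unequal spread of these libraries. CPM are counts per 1000000 of the scaled library. A fold against 0 counts used a floor of 3 counts over the group and covers counting error only, as no molecular identifiers are recorded.

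Members, lists and tests were chosen with earlier results of these data known. Genes were named by rank: in each list up to 5 called members in each direction by smallest p and 3 uncalled members by mean CPM, and over all genes the 8 with the largest differences in each direction by CPM or, from a mean of 10 CPM in the higher genotype, by fold. ICS1, ASN1, DIN10, BCAT-2, IVD, MCCA, LKR, SAG13, BCAT4, MAM1, IIL1, SOT17, SOT18, APR3, FMO GS-OX2, FMO GS-OX4, LBD21 and AT3G11110 were added after their values were seen. Of the genes with values in the text, 57 overlap another annotated gene, from which their reads cannot be told apart without strand.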

Additional observations from a re-analysis of the deposited data

How the results depend on the processing

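Against 3692 genes called in the design reported, the alternatives gave 3599 (RLE factors), 3459 (all genes kept), 3768 (at least 20 counts in 2 libraries), 4491 (DESeq2) and 3599 (organelle genes removed). Scaling by library totals gave 6414 calls, 5287 higher and 1127 lower. Of 74 list medians, 54 moved by more than the spread between libraries. Counted over all 74, moved or not, 14 changed sign. Leaving out 1 library gave 0 to 6164 calls, 0 to 2958 of them higher, 0 to 3229 lower and 0 to 3842 at 2-fold or more. The 0 counts came without WT replicate 1 or 2, where 4033 and 3990 genes had an unadjusted p under 0.05, and the kept WT library was assumed to vary like those of OXAITF1. The labels tie replicate numbers to no plant or day, and the replicate differences of the 2 genotypes correlated at -0.115 across genes. With the replicate number as a block, 0 genes were called (6060 at an unadjusted p under 0.05), so 0 higher and 0 lower. A block with crossed numbers, chosen after the data were seen, gave 3423 calls. The log2 fold change of AT3G11100 was 7.87 with the block (adjusted p = 0.0527), and 7.64 to 8.06 with 1 library left out, no longer called without either WT library (adjusted p = 0.164 and 0.169). The cause of these shifts was not tested. No called gene with values in the text changed sign under any of these alternatives. Depth limits genes near 1 CPM, where 1 count weighs 0.0516 to 0.0654 CPM before TMM scaling. After scaling the range is wider. There 1 count of AT5MAT in OXAITF1 replicate 2 is 0.04598 CPM, and 2 counts of YUC8 in WT replicate 1 are 0.149 CPM.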

Other observations

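Cytochrome P450 genes moved in both directions. Of 125 tested, 18 were higher and 13 lower in OXAITF1 leaves, near the shares over all genes. Leaving out OXAITF1 replicate 1 gave 26 and 32, leaving out replicate 2 gave 38 and 24, and scaling by library totals gave 33 and 9. CYP71B23 had 78.7 and 87.8 CPM in OXAITF1 leaves, against 19.4 and 21.7 CPM in WT leaves (log2 fold change 2.02, SE 0.15, adjusted p = 0.0141). CYP707A2, an enzyme that breaks abscisic acid down, had 7.38 and 5.702 CPM in OXAITF1 leaves, against 0.822 and 0.984 CPM in WT leaves. The carotenoid hydroxylases LUT1 and CYP97A3 were lower. LUT1 had 20.5 and 21.4 CPM in OXAITF1 leaves, against 46.998 and 48.3 CPM in WT leaves. CYP97A3 had 35.9 and 41.9 CPM in OXAITF1 leaves, against 98.3 and 102 CPM in WT leaves.

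Of 30 ABCG transporters 5 rose and 0 fell, with 6 and 3 without OXAITF1 replicate 1 and 11 and 2 without replicate 2. ABCG34, linked to export of camalexin, had 46.9 and 54.7 CPM in OXAITF1 leaves, against 23.9 and 29.2 CPM in WT leaves (log2 fold change 0.93, SE 0.17, adjusted p = 0.031). ABCG42 had 28.95 and 31.8 CPM in OXAITF1 leaves, against 5.16 and 7.73 CPM in WT leaves. Of 24 beta-glucosidases 3 rose and 7 fell, whereas 4 rose and 3 fell with scaling by library totals, and 5 rose and 12 fell without OXAITF1 replicate 1. BGLU44 had 359.5 and 495 CPM in OXAITF1 leaves, against 1063 and 1141 CPM in WT leaves. BGLU11 had 78.5 and 35.9 CPM in OXAITF1 leaves, against 2.47 and 6.26 CPM in WT leaves. PEN2, which hydrolyses indole glucosinolates at sites of attack, had 149 and 179.9 CPM in OXAITF1 leaves, against 332 and 298 CPM in WT leaves and was lower in both OXAITF1 libraries. PAP17, an acid phosphatase of phosphate starvation, was the 1 of 12 genes of that list to rise, with 79.3 and 43.2 CPM in OXAITF1 leaves, against 5.23 and 7.73 CPM in WT leaves. The fit without OXAITF1 replicate 2 called 3 of them higher, and that without replicate 1 called 1 higher and 2 lower.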
